A study of Mus musculus with 12 samples.

Results

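The genes described here encode the machinery of mitosis: kinesin motors, kinetochore proteins, spindle proteins and the kinases and cyclins that drive cells into division. They were chosen by symbol, as every kinesin with a numbered Kif symbol, the Cenp, Bub1, Aurk, Ska, Sgo and Spc2 families, cyclins A and B, and 19 further symbols named one by one. The rule found 53 of the 3939 genes in the authors' deposited table. That table compares the left ventricle after AngII/PE infusion (6 libraries, 3 from females and 3 from males) with the left ventricle after NaCl (6 libraries, 3 from females and 3 from males), each given for 3 days. All animals were wild type (WT C57Bl6J/129X1 hybrid), and the whole myocardium was sampled. AngII/PE is an abbreviation in the labels that in cardiac research usually stands for angiotensin II with phenylephrine, and the series title names heart failure with preserved ejection fraction as the setting. The labels and the table state no ages, no doses and no number of mice behind the libraries. All log2 fold changes below are the authors' average of AngII/PE over NaCl, and all adjusted p-values are theirs. Values per library were not analysed here, so a fold change stands here without level, spread or replicate number, and females and males cannot be told apart. The table lists only genes with an adjusted p below 0.05, so a gene without a value is one for which no change was analysed here.

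A dividing cell condenses its chromosomes, attaches each one through its kinetochore to spindle microtubules, waits at the spindle checkpoint until all are attached, and then separates and pinches off. Cyclin-dependent kinase 1 with cyclins A and B, Polo-like kinase and the Aurora kinases drive these steps, and the anaphase-promoting complex ends them by marking cyclins and other proteins for destruction. Many kinesins carry cargo along microtubules, while a subset works on the spindle. In the adult mouse heart most muscle cells no longer divide, whereas fibroblasts, immune cells and vascular cells still can. In bulk tissue a change in the number of dividing cells and a change in RNA per cell cannot be told apart.

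In AngII/PE myocardium 49 of these 53 genes were higher and 4 lower than in NaCl myocardium, by the authors' deposited table. Thus 92.5% were higher, against 56.2% of all 3939 listed genes, and 4 were lower, against 43.8% of all. Their median log2 fold change was 2.44 (5.42-fold), beside a median of 0.67 over all listed genes in the authors' deposited table. Rises of 2 or more on the log2 scale were listed for 33 of the 53, which is 62.3%, against 8.5% of all listed genes. Rises of 3 or more were listed for 18 of the 53, against 2.97% of all listed genes. Because the genes were chosen with earlier results of the same table known, these shares are descriptions and carry no test. The annotation (GENCODE M21) holds 99 protein coding genes that the symbol rule matches, so 46 have no value analysed here. Among the 46 are Aurkaip1, Ccnb1ip1 and Kif1bp, which fit the rule by their letters and are not known as mitotic proteins. In all, 53.5% of the matching genes were listed, against 15.2% of all 21924 protein coding symbols in the annotation, many of which the heart may not express. That share is raised by the 19 symbols named one by one, of which 18 were listed, all but Cks2. The 4 lower genes were Kif6, Cenpv, Cenpf and Kif26a. No member lay close to the adjusted p limit of the table, the highest value being 0.0199 for Kif9 in the authors' deposited table. By size, Kif24 (0.65) and Kif3b (0.67) lay close to 0.6, a log2 fold change under which only 27 of the 2213 listed rises fall. Small falls were listed far more often: Kif26a, at -0.58, ranked 1024th by size among the 1726 listed falls. The shares higher and lower and the median of all listed genes depend on this uneven listing.

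**Figure D1:**
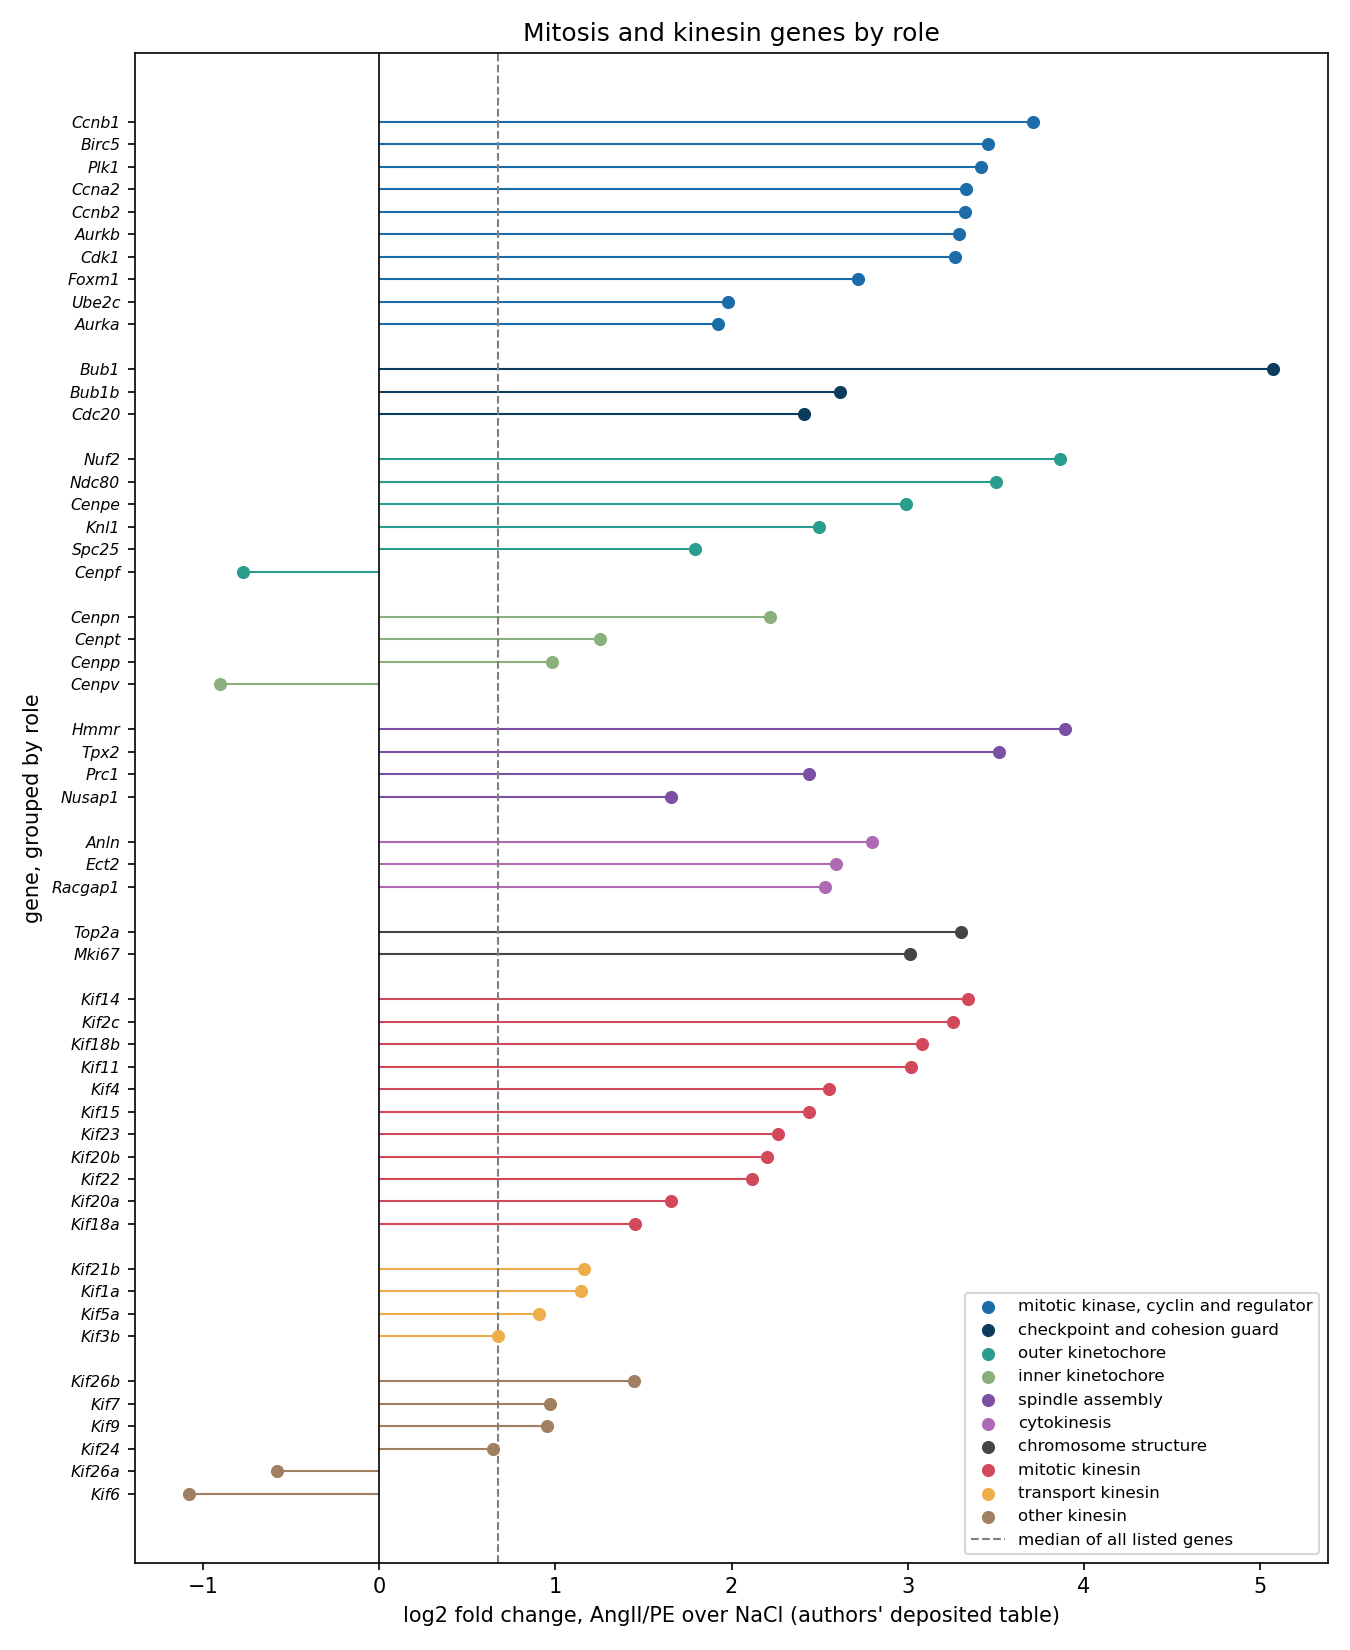
The log2 fold change of AngII/PE over NaCl (horizontal axis, authors' deposited table) is drawn for each of the 53 listed genes, grouped by role, with the median of all listed genes (0.67) as a dashed line. Bub1 stands farthest right at 5.08, the mitotic kinesins run between 1.45 and 3.34, and Kif6, Cenpv, Cenpf and Kif26a lie left of 0.

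Promoters are shown first, since genes of the late cell cycle are known to share short promoter elements. The cell cycle genes homology region (CHR), bound by the MuvB core of the DREAM and MYB-MuvB complexes, was searched by the letters TTTGAA on both strands, and by its variants TTCGAA or, with all weak bases, TTTAAA, which read the same on either strand. The CCAAT box, bound by NF-Y, was searched by the letters CCAAT on both strands. Matches were counted also where they overlap another match. RefSeq windows on build GRCm38.p6, from 250 bases before to 50 after the transcription start, were available with a single start for 36 of the 43 genes of a mitotic role, that is without the transport and other kinesins. Of the other 7, Ect2 and Prc1 have 2 starts each, and Tpx2, Ccna2, Aurkb, Foxm1 and Kif20a have no entry. The lines below hold the gene with the largest rise in each role class among those with a single start, plus Cenpf, which was chosen after its value was seen because it fell. The Kif14 stretch follows the RefSeq start but lies inside the gene as GENCODE M21 places it, beginning at 136466343. It may therefore not be the promoter of Kif14, which was not tested. Each line gives 160 bases, from 110 before the start to 50 after it, 5′ to 3′ on the gene's own strand, with CHR and CCAAT matches on either strand in capitals.
Ccnb1 (chr13:100786437-100786596, minus strand): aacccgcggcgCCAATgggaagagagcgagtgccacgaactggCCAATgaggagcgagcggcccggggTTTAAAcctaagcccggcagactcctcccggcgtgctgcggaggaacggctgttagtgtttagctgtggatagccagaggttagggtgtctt
Bub1 (chr2:127831810-127831969, minus strand): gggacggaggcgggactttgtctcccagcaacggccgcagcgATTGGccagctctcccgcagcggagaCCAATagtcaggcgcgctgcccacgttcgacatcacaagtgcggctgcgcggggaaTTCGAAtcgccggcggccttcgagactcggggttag
Hmmr (chr11:40733388-40733547, minus strand): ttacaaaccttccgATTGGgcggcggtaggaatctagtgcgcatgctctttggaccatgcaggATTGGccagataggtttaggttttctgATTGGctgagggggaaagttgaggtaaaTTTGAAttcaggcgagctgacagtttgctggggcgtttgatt
Top2a (chr11:99024140-99024299, minus strand): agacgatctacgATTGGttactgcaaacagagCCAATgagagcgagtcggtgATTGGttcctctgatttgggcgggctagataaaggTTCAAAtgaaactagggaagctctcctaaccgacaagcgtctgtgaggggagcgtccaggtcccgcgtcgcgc
Anln (chr9:22389157-22389316, minus strand): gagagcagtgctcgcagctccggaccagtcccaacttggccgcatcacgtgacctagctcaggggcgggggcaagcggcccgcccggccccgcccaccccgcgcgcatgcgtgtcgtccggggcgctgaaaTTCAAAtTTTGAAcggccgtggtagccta
Kif14 (chr1:136467738-136467897, plus strand): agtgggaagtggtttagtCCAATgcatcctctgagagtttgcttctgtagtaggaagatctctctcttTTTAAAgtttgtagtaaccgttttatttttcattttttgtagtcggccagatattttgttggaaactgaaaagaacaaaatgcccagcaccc
Cenpn (chr8:116921630-116921789, plus strand): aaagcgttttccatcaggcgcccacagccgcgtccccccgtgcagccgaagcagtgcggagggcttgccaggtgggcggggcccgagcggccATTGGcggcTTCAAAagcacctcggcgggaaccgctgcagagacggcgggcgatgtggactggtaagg
Nuf2 (chr1:169531415-169531574, minus strand): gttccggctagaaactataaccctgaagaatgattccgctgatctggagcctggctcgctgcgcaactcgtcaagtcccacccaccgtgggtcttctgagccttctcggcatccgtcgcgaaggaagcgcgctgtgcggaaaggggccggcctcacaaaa
Cenpf (chr1:189688037-189688196, minus strand): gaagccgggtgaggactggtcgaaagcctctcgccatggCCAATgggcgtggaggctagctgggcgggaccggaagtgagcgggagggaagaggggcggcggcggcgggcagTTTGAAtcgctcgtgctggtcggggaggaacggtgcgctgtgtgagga
Kif26b (chr1:178529015-178529174, plus strand): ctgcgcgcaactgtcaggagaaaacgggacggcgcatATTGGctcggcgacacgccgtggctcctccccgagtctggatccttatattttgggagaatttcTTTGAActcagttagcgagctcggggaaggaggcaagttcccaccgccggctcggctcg
Kif3b (chr2:153291306-153291465, plus strand): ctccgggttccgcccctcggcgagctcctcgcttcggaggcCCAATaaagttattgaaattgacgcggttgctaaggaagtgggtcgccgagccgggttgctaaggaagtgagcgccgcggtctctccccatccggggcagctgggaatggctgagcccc

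A CHR match lying wholly within 50 bases of the start was found in 27 of the 36 promoters of genes with a mitotic role (75%), against 8.7% of all 22862 promoters with a single start and 9.49% of those of all listed higher genes. Over the whole window 31 of the 36 held a CHR match (86.1%), against 29.5% of all promoters. CCAAT matches were found in 23 of the 36 (63.9%), against 38.2% of all promoters, and 15 held 2 or more of them (41.7%), against 12.3%. Both a CHR match near the start and a CCAAT match stood in 22 of the 36 (61.1%), against 3.56% of all promoters. The mitotic kinesins held a CHR match near the start in 8 of 10 promoters, and the listed transport and other kinesins in 2 of 6, those of Kif24 and Kif26b. Kif14, whose window lies inside the gene as annotated in GENCODE M21, is counted among the 8 and the 27. Counting the first transcribed base as 1 and the base before it as -1, a CHR match of the Ccnb1 stretch begins at -42, with CCAAT matches at -99 and -67. The Bub1 stretch holds its CHR match at 15, with CCAAT matches at -68 and -42. Anln has CHR matches at 22 and 29 and no CCAAT match. The Nuf2 window holds neither motif, although its fold change was among the largest. The Cenpf window holds CHR matches at -154 and 3 and CCAAT matches at -132 and -71, although Cenpf fell. A match is a description of letters and says nothing of binding in these hearts.

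**Figure D2:**
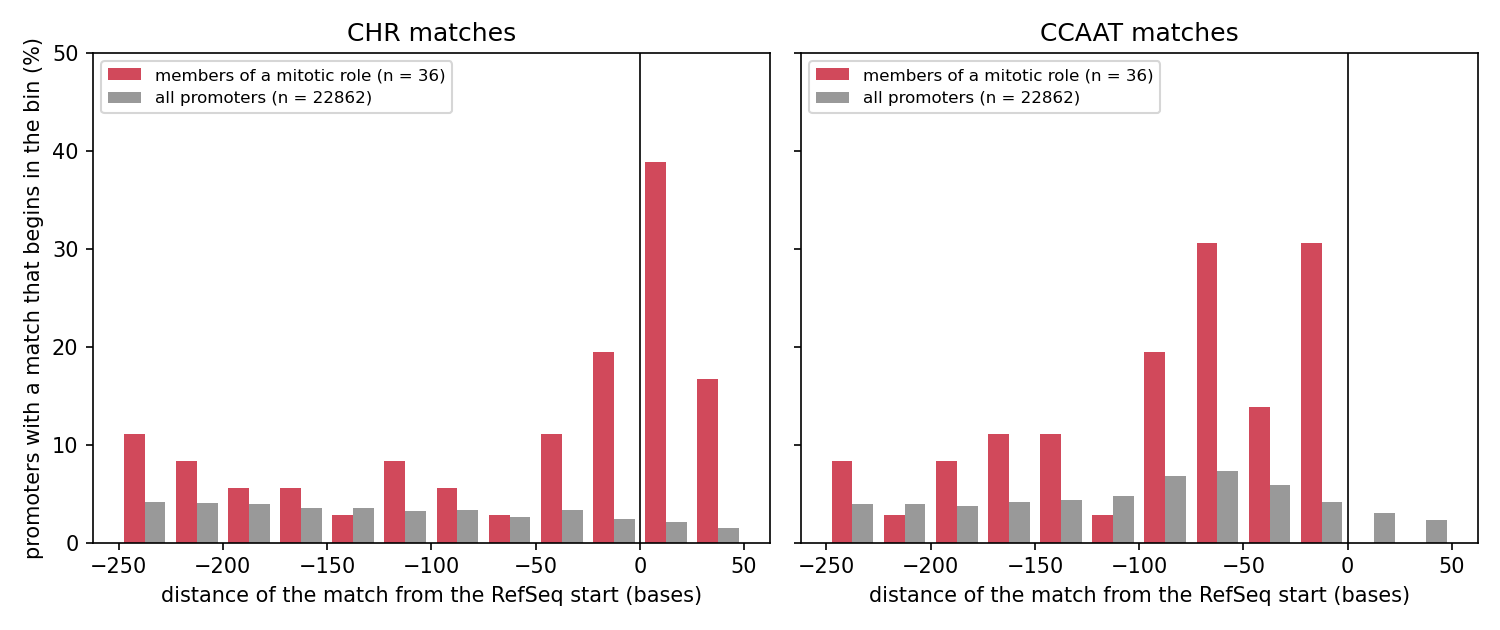
The percentage of promoters in which a match begins is drawn per bin of 25 bases against the distance from the RefSeq start, for CHR (left) and CCAAT (right), with the 36 genes of a mitotic role in red and all 22862 promoters in grey. In the 25 bases from the start onward 38.9% of the red promoters and 2.06% of the grey ones begin a CHR match, while red CCAAT matches are most frequent in the bins from -75 to -51 and from -25 to -1 (30.6% each).

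Of the kinases, cyclins and their regulators 10 of the 14 matching genes were listed, each higher, with a median log2 fold change of 3.31 in the authors' deposited table. Over all genes, 15.2% of protein coding symbols were listed and 56.2% of listed genes were higher. Ccnb1, Ccna2 and Ccnb2, encoding cyclins B1, A2 and B2, had log2 fold changes of 3.71, 3.33 and 3.33 in the authors' deposited table. Their partner kinase gene Cdk1 was at 3.27 (adjusted p = 2.02e-32) in the authors' deposited table. The values of these 4 genes span 0.44 on the log2 scale. Plk1, encoding the Polo-like kinase of mitotic entry and spindle assembly, was at 3.41 (adjusted p = 2.15e-26) in the authors' deposited table. Aurkb and Birc5, encoding the kinase and the survivin subunit of the chromosomal passenger complex, were at 3.29 and 3.46 in the authors' deposited table. The centrosomal Aurora kinase gene Aurka rose less, with 1.92 (adjusted p = 1.25e-08) in the authors' deposited table. Its log2 fold change lies 1.37 below that of Aurkb, a difference without an error of its own. Foxm1, a transcription factor that activates late cell cycle genes, was at 2.72, and Ube2c, a ubiquitin-conjugating enzyme of the anaphase-promoting complex, at 1.98 in the authors' deposited table. The matching genes Ccna1, Ccnb3, Aurkc and Cks2 have no value analysed here.

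Spindle checkpoint genes held the largest rise of the whole group. Bub1, a checkpoint kinase of the kinetochore, was at 5.08 (33.7-fold) with an adjusted p of 1.21e-15 in the authors' deposited table, which placed it 17th by size among all listed genes. It stood 1.18 above the next member, Hmmr, on the log2 scale. Bub1b, encoding the checkpoint protein BubR1, was at 2.62 and Cdc20, the activator of the anaphase-promoting complex that the checkpoint restrains, at 2.41 in the authors' deposited table. Bub1 thus exceeded Bub1b by 2.46 on the log2 scale, while its adjusted p was larger than that of Bub1b (2.56e-27) in the authors' deposited table. The shugoshin genes Sgo1, Sgo2a and Sgo2b, whose products guard centromeric cohesion, have no value analysed here.

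Outer kinetochore genes, which encode the plate that grips microtubules, were listed for 6 of 10 and were higher in 5. Beside these counts stand 15.2% of protein coding symbols listed and 56.2% of all listed genes higher. Nuf2 and Ndc80, partners within the NDC80 complex, were at 3.87 and 3.50 in the authors' deposited table. Another subunit gene, Spc25, was at 1.79 (adjusted p = 1.08e-07), and Spc24 has no value analysed here. Cenpe, a kinesin motor of the kinetochore, was at 2.99 (adjusted p = 2.42e-40) and the scaffold gene Knl1 at 2.50 in the authors' deposited table. Cenpf went the other way in the authors' deposited table, with -0.77 (1.71-fold lower, adjusted p = 3.13e-09). Its product coats the outer kinetochore in mitosis, and the mouse protein, also called LEK1, has in addition been described in heart muscle cells. Its log2 fold change lies 3.76 below that of Cenpe. The Ska genes, whose products track microtubule ends, have no value analysed here.

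Inner kinetochore genes, which encode the assembly on centromeric chromatin, were listed less often than outer kinetochore genes. Their median log2 fold change was 1.12 in the authors' deposited table, against 2.74 for the outer kinetochore and 0.67 for all listed genes. Of 18 matching genes 4 were listed, beside 15.2% of all protein coding symbols in the annotation. Cenpa, the centromeric histone gene itself, was among the 14 with no value analysed here. Cenpn, which recognises centromeric nucleosomes, was at 2.22 (adjusted p = 6.78e-10) and Cenpt, which links them to the outer plate, at 1.26 in the authors' deposited table. Cenpp was at 0.98 (adjusted p = 6.29e-04) in the authors' deposited table. Cenpp spans the matrix genes Aspn and Ogn on the opposite strand, and these were at 2.87 and 0.65 in the authors' deposited table. The labels do not say whether strand was used in counting, so reads of these genes could have been shared. Cenpv, put in this class by its symbol and described on kinetochores and the central spindle, fell by 0.90 (log2) in the authors' deposited table (adjusted p = 8.92e-13). The listed inner kinetochore genes thus lay between -0.90 and 2.22, and none reached the values of Nuf2 or Ndc80.

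Spindle assembly and cytokinesis genes rose in every listed case, 4 of 4 and 3 of 3, beside 56.2% of all listed genes. Each of them was named one by one in the rule, with earlier results of the same table known. Of the 19 symbols so named 18 were listed, so these counts describe the choice of names as well. Hmmr, encoding a hyaluronan receptor that also binds spindle microtubules, was at 3.90 (14.9-fold) and Tpx2, the spindle activator of Aurora A, at 3.52 in the authors' deposited table. Prc1, which bundles the microtubules of the central spindle, was at 2.44, and Nusap1, a further microtubule bundler, at 1.65 in the authors' deposited table. For cytokinesis, Anln (anillin, a scaffold of the contractile ring) was at 2.80, Ect2, which helps to position the cleavage furrow, at 2.59 and Racgap1 at 2.53 in the authors' deposited table. The cytokinesis genes lay within 0.26 of each other on the log2 scale. Racgap1 and the kinesin gene Kif23, whose products form centralspindlin, were at 2.53 and 2.26 in the authors' deposited table. Of the chromosome genes, Top2a, the topoisomerase that untangles sister chromatids, was at 3.30 and the proliferation marker Mki67, a coat of mitotic chromosomes, at 3.01 in the authors' deposited table. Top2a had the smallest adjusted p of the 53 genes, 9.88e-87, and was followed by Anln with 2.87e-59 in the authors' deposited table.

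The 11 kinesins classed here as mitotic were all listed and all higher, with a median log2 fold change of 2.44 (5.42-fold) in the authors' deposited table. That every one was listed, beside 15.2% of all protein coding symbols, depends on the classes. Of all listed genes 56.2% were higher. Kif2a and Kif2b, relatives of the mitotic kinesin gene Kif2c, were put among the other kinesins and have no value analysed here. The largest rises were close together. Kif14, a kinesin of the midbody, was at 3.34, and Kif2c, a microtubule depolymerase of the centromere, at 3.26 in the authors' deposited table. Kif18b, which limits astral microtubules, was at 3.08, and Kif11, the motor that pushes spindle poles apart, at 3.02 (adjusted p = 1.49e-36) in the authors' deposited table. The chromosome-arm motor genes Kif4 and Kif22 were at 2.55 and 2.12, and Kif15, which helps to keep the spindle bipolar, at 2.44 in the authors' deposited table. Kif23, Kif20b and Kif20a, all with roles in the central spindle or midbody, were at 2.26, 2.20 and 1.65 in the authors' deposited table. Kif18a, the motor that dampens chromosome movements at the spindle equator, had the smallest rise, 1.45 (adjusted p = 2.24e-05), which lies 1.63 below its relative Kif18b in the authors' deposited table. A pair of kinesins outside the numbered symbols belongs with them by role: Cenpe at 2.99 and Kifc1, a minus-end motor that focuses spindle poles, at 3.07 in the authors' deposited table. The pseudogene copies Kif4-ps and Kif22-ps, and likewise Ccnb1-ps and Ccnb2-ps, are in the annotation, and no label states how reads matching both a gene and its copy were counted.

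Transport kinesins differed from these in how many were listed and in size. Of 15 matching genes 4 were listed, beside 15.2% of all protein coding symbols in the annotation. All 4 were higher, with a median log2 fold change of 1.02 (2.03-fold) in the authors' deposited table, which is 1.41 below that of the mitotic kinesins. That median lay close to the 1.06 of all 2213 listed rises. Their ranges did not overlap: the lowest mitotic kinesin, Kif18a, was at 1.45 and the highest transport kinesin, the neuronal Kif21b, at 1.16 in the authors' deposited table. Kif1a, a motor of synaptic vesicle precursors in neurons, was at 1.14 and Kif5a, the neuronal conventional kinesin heavy chain gene, at 0.91 in the authors' deposited table. Kif3b, a subunit of the heterotrimeric kinesin of cilia and vesicle transport, was at 0.67 (adjusted p = 9.62e-13), and its partner Kif3a has no value analysed here. The 11 transport kinesins with no value also include Kif5b, the widely expressed conventional kinesin heavy chain gene, and Kif1b and Kif1c. Of the 2213 listed rises 27 are under 0.6 on the log2 scale, so small rises of unlisted kinesins may have no value here, and the transport median describes the listed genes alone. No test of the difference between the classes was made, since genes are not replicates of a treatment.

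The other kinesins were mixed, with 6 of 12 listed, 4 higher and 2 lower. Over all genes, 15.2% of protein coding symbols were listed, and 56.2% of listed genes were higher and 43.8% lower. This class holds kinesins with ciliary, signalling or unclear roles, and also the unlisted Kif2a and Kif2b. In the authors' deposited table Kif26b, an atypical kinesin, rose by 1.45 (adjusted p = 2.68e-28), while its close relative Kif26a was at -0.58 (adjusted p = 4.25e-24). These relatives lie 2.03 apart on the log2 scale, in opposite directions. Kif7, a ciliary regulator of Hedgehog signalling, was at 0.97, Kif9, a kinesin of motile cilia and sperm tails, at 0.95 and Kif24, which restrains cilium assembly, at 0.65 in the authors' deposited table. Kif6 showed the largest fall among the 53 genes in the authors' deposited table, -1.08 (2.11-fold lower, adjusted p = 1.05e-08).

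**Figure D3:**
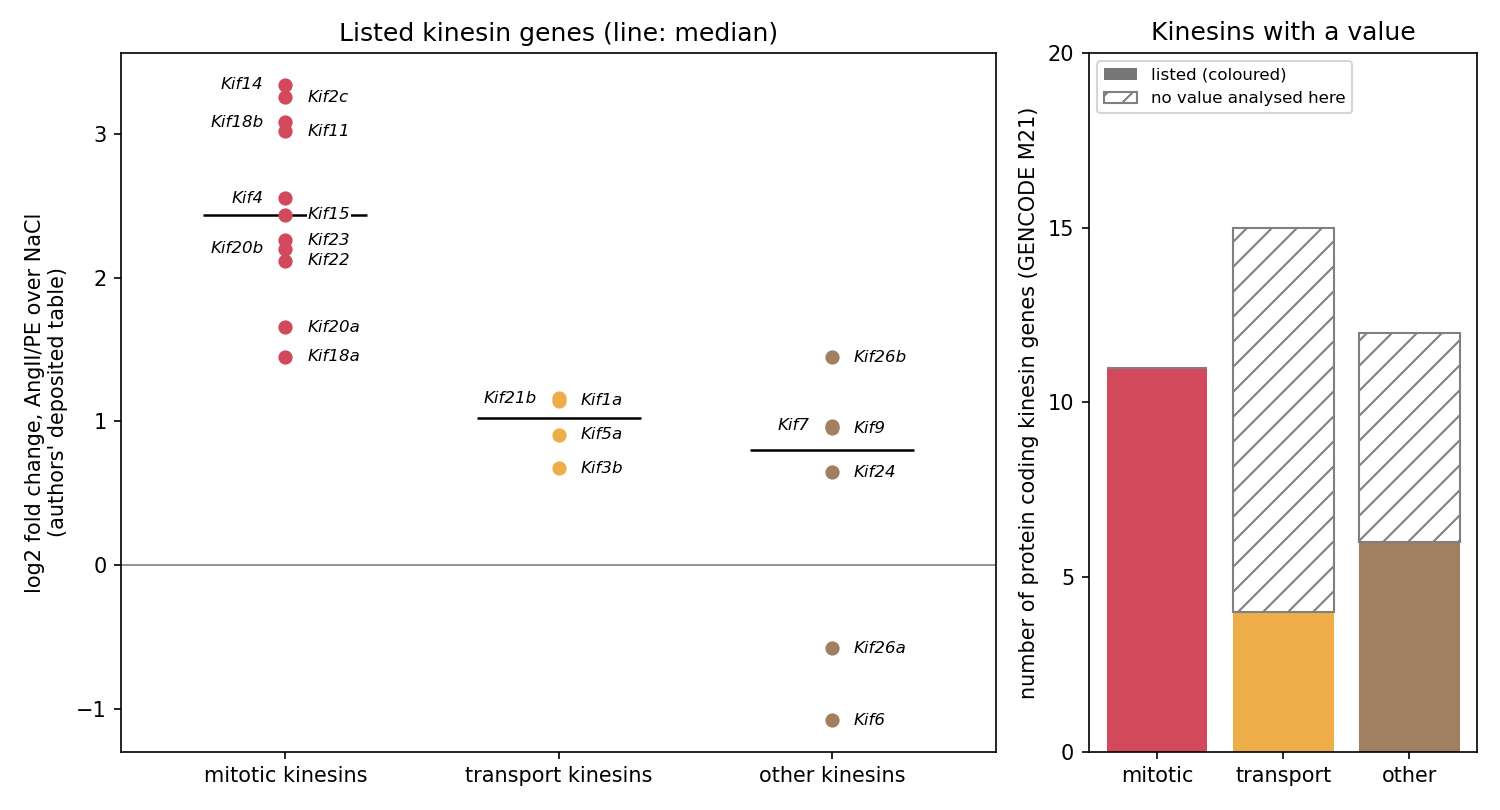
Left, the log2 fold change of AngII/PE over NaCl (authors' deposited table) is drawn for the 21 listed kinesin genes by class, with each class median as a line (2.44, 1.02 and 0.80). Right, the numbers of protein coding kinesin genes with a value (filled: 11, 4 and 6) and without one analysed here (hatched: 0, 11 and 6) are stacked.

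Size and adjusted p did not run together at the top of the table. By size, 26 members stood among the 200 largest rises, whereas none stood among the 200 smallest adjusted p-values. Among the 335 listed genes with a log2 fold change of at least 2, only 1 of the 33 members, Top2a, was also among the 335 smallest adjusted p-values, against 80 of the other 302 genes. The median adjusted p of those 33 members was 6.42e-23 and that of the other 302 genes 2.51e-31 in the authors' deposited table. Between the size of the rise and the rank of the adjusted p, the Spearman correlation across the 49 higher members was -0.54 (larger rises had smaller adjusted p-values), given as a description over genes measured in the same libraries. Expression levels were not analysed here, and the part of a low baseline level in this pattern was not tested.

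**Figure D4:**
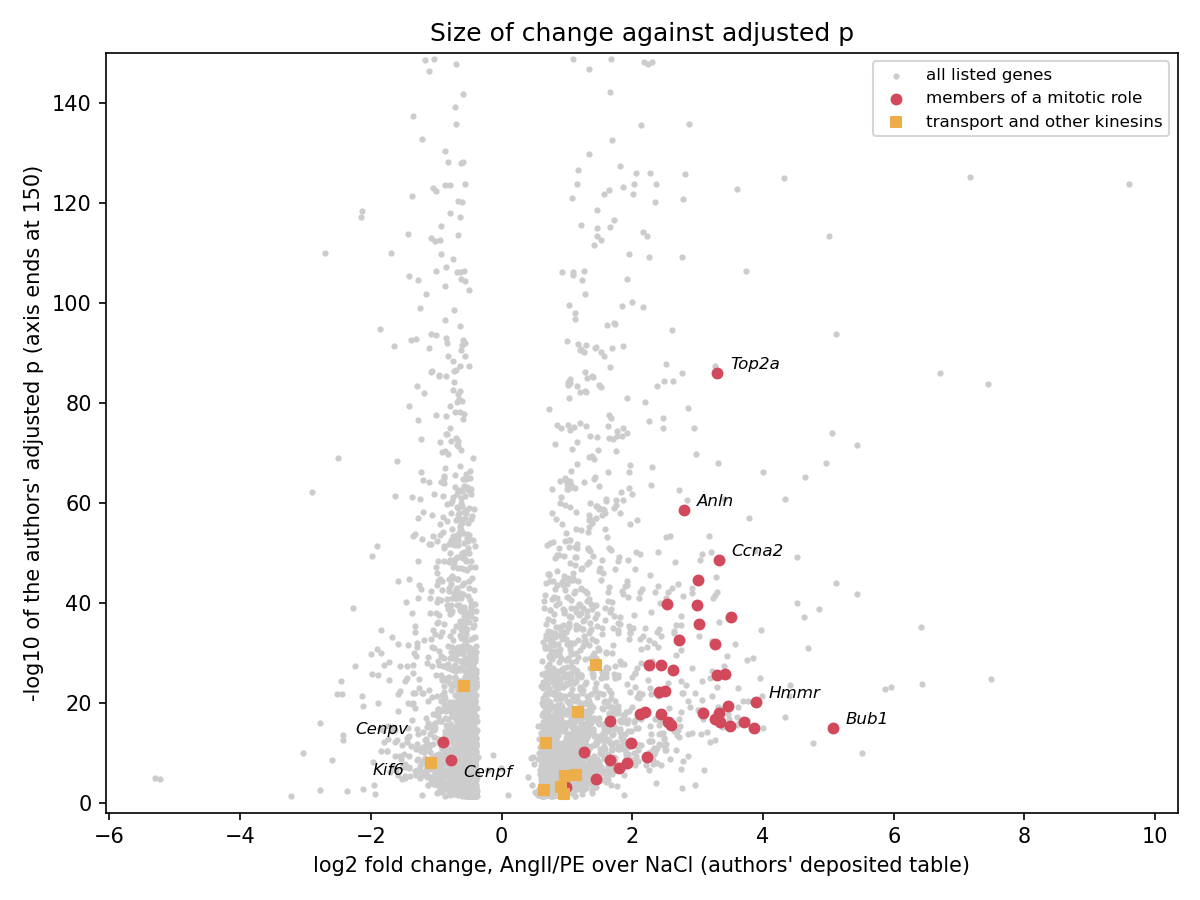
The negative log10 of the authors' adjusted p (vertical axis, ending below the highest grey points, without the 16 genes listed at 0) is drawn against the log2 fold change of AngII/PE over NaCl for all listed genes (grey), members of a mitotic role (red) and transport and other kinesins (orange squares). Top2a is the highest red point, and Bub1 lies far right at 5.08 with an adjusted p of 1.21e-15.

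Other genes of the same machinery, from lists drawn up by role, moved in the same direction. Of 65 further spindle, kinetochore and mitotic exit genes 30 were listed, 29 higher and 1 lower, with a median log2 fold change of 2.15 in the authors' deposited table. Over all genes, 15.2% of protein coding symbols were listed and 56.2% of listed genes were higher. Melk, a kinase of dividing cells, was at 3.99, the spindle protein genes Ckap2 and Dlgap5 at 3.78 and 3.69, and Kntc1, of the complex that recruits dynein to kinetochores, at 3.76 in the authors' deposited table. Psrc1 and Pimreg were at 3.62 and 3.37 in the authors' deposited table. The exception was Pttg1, encoding securin, the inhibitor of separase, at -0.66 (adjusted p = 1.36e-13), while the separase gene Espl1 was at 2.04 in the authors' deposited table. Chromosome condensation genes were higher in all 6 listed of 10, led by the condensin genes Ncapg at 3.15 and Ncaph at 2.03 with Cdca2 at 2.86 in the authors' deposited table.

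A further list of genes for G2 to M control leaves out the rule members, among them Ccnb1, Cdk1, Plk1 and Foxm1. It also holds genes whose roles are not limited to that step, such as E2f7 at 2.03 and E2f8 at 1.23. Of its 20 genes 12 were listed, all higher, with a median log2 fold change of 1.07 in the authors' deposited table. Beside the counts here stand 15.2% of protein coding symbols listed and 56.2% of all listed genes higher. The 10 listed kinases, cyclins and regulators of the rule had a median of 3.31, so the lower value does not describe mitotic entry genes as a whole. Cdca3, a trigger of mitotic entry, was at 3.99 and Mybl2, encoding the B-MYB partner of MuvB, at 2.68, while the MuvB subunit gene Lin9 was at 0.63 (adjusted p = 0.0300) in the authors' deposited table. The inhibitory kinase gene Wee1 was at 1.16 in the authors' deposited table. The 43 listed genes of a mitotic role had a median log2 fold change of 2.62 in the authors' deposited table. Replication genes of the S phase, higher in all 21 listed of 30, had a median of 1.36. The medians of the further spindle, kinetochore and mitotic exit genes (2.15) and of the chromosome condensation genes (1.88) lay between these values. Uhrf1, a chromatin factor of replication, was at 2.98, Mcm10 at 2.77, E2f1 at 2.68 and the ribonucleotide reductase gene Rrm2 at 1.97 in the authors' deposited table. The ranges of these lists overlap, and the differences between their medians were not tested.

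Listed markers of the cells a ventricle can hold moved as well, beside 56.2% of all listed genes higher and 43.8% lower. Fibroblast markers were higher in 3 of 3 listed of 6, with Postn at 5.68 and Col1a1 at 3.81, and macrophage markers in 6 of 6, with Lgals3 at 3.40 and Adgre1 at 1.74 in the authors' deposited table. The neutrophil genes Lcn2 and Csf3r were at 2.56 and 1.71, with the other 4 of that list having no value analysed here. Endothelial markers were lower in 4 of 4 listed of 6, led by Cldn5 at -0.92 in the authors' deposited table. Cardiomyocyte markers were lower in 2 of 2 listed of 6, Tnni3 at -1.07 and Myh6 at -0.65. The other 4 cardiomyocyte markers have no value analysed here. Mural cell markers were lower in 3 of 4 listed of 6, with Abcc9 at -1.17 and the exception Cspg4 at 1.33 in the authors' deposited table. Erythroid genes were lower in 5 of 5 listed of 6, with a median of -1.68, and the 6 lymphocyte markers have no value analysed here. The part of these cell types in the rise of the mitosis genes was not tested.

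**Figure D5:**
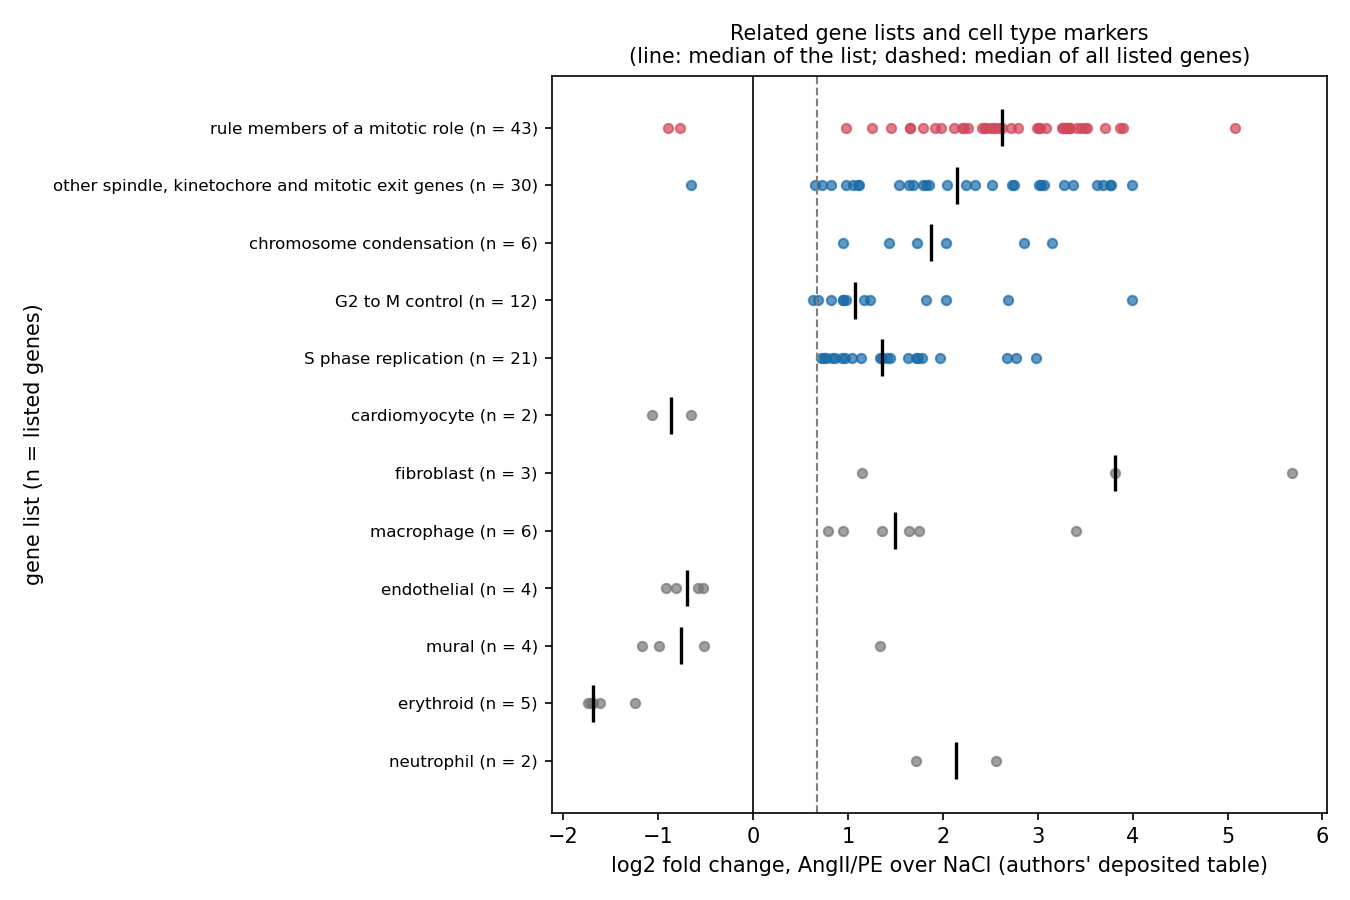
The log2 fold change of AngII/PE over NaCl (horizontal axis, authors' deposited table) is drawn for every listed gene of each list, with list medians as short lines and the median of all listed genes dashed. The mitosis genes (red, median 2.62) and related cell cycle lists (blue) lie right of 0 except for Cenpv, Cenpf and Pttg1. Among the cell type markers (grey), the listed fibroblast, macrophage and neutrophil genes lie right. The listed erythroid, endothelial and cardiomyocyte genes lie left, with only 2 of 6 cardiomyocyte markers listed.

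The 53 genes lie on 17 chromosomes, with at most 10 on one, chromosome 2 of build GRCm38 (mm10). Bub1 occupies chromosome 2 from 127801122 to 127831865, Ccnb1 chromosome 13 from 100778650 to 100786570, Kif14 chromosome 1 from 136466343 to 136531511 and Cenpf chromosome 1 from 189640606 to 189688086, all as protein coding genes of GENCODE M21. The closest pair, Kif21b and Kif14 on chromosome 1, is 288344 bases apart. A gene on the opposite strand overlaps 21 of the 53, and for 11 of these it is protein coding; in 2 cases, Cenpp and Cdc20, an overlapping gene is itself listed. Cdc20 shares 53 bases with Elovl1, which was at 0.94 in the authors' deposited table.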

How the data were processed

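RNA came from PureLink columns, per the labels, and the 12 RNA-seq libraries of left ventricle fall into 4 groups of 3 by treatment and sex. Per the submitters' processing notes, the authors used cutadapt, STAR 2.4.2a, Subread, featureCounts and DESeq2 with mouse build mm10; no role, setting, annotation, strand use or model is stated. The deposited table gives an average log2 fold change and an adjusted p-value per gene, computed by the authors; what was averaged and how genes were chosen for listing is not stated. Values per library were not analysed here, so depth and its precision are unknown.

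From that table the members were selected by symbol, assigned to role classes, counted by direction and summarised by medians with Python 3.11.15 and pandas 2.3.3. No test of gene sets or between classes was run, because genes are not replicates. Members, classes and lists were chosen with earlier results of these data known. Every member could be named; of each other list up to 6 genes with the largest absolute change, and any against the majority, could be named, while Espl1, Kifc1, Lin9, Aspn, Ogn and Elovl1 were chosen after their values were seen. Positions come from GENCODE M21 by symbol and promoters from RefSeq (GRCm38.p6). The motif search was tested on simulated sequences. Alternatives were an adjusted p under 0.01, a minimum absolute log2 change of 1, subtraction of the median of all listed genes, removal of predicted genes, and other class memberships.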

Additional observations from a re-analysis of the deposited data

How the results depend on the processing

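The fold changes carry no replicate error, so a median is called unmoved below only if it is equal to 2 decimals. The number of mitosis genes listed higher, 49 of 53, was 48 of 52 at an adjusted p under 0.01, 43 of 44 with a minimum absolute log2 change of 1, 47 of 53 after subtracting the median of all listed genes (0.67), and 41 of 43 without members of no mitotic role. The 2 genes whose sign turned with that subtraction were Kif3b and Kif24. The median log2 fold change of the mitosis genes, 2.44, was 2.47 at the stricter adjusted p, 2.61 with the minimum change of 1, 1.76 after subtraction and 2.62 without members of no mitotic role. The median of the mitotic kinesins, 2.44, was 1.76 after subtraction, and that of the transport kinesins, 1.02, was 1.15 with that minimum (2 genes left) and 0.35 after subtraction. The difference between both classes, 1.41, was 1.29 at that size limit, 1.51 with other kinesins counted as transport kinesins and 1.53 with Cenpe and Kifc1 counted as mitotic kinesins. Removal of predicted models, RIKEN clones and pseudogenes took out none of the 53 genes, so these 5 results could not move under it. No paired analysis was possible because no result comes from values per library, and for the same reason no library could be left out. The depth behind each value is unknown, and a gene without a value cannot be read as unchanged.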

Other observations

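Among the 36 promoters searched for genes of a mitotic role, a CHR match within 50 bases of the start was present in 23 of the 27 genes with a log2 fold change of at least 2 (85.2%) and in 4 of the 9 below it (44.4%). The split at 2 was chosen after the values were seen and carries no test.

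The table's own column of gene descriptions goes against the symbol for some of these genes. Tpx2 is described there as deleted in azoospermia-like, Kif22 as a pseudogene and Ccnb1 as a related sequence, although GENCODE M21 has each as a protein coding gene. That column is headed as a DAVID annotation, and the values were taken by symbol. How these descriptions came to differ from the symbols was not tested.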
